A study of Mus musculus with 3 samples.

Results

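Osteopontin (Spp1), its receptor Cd44 and 4 matricellular genes, Sparc, Sparcl1, Thbs1 and Tnc, were followed across RNA-seq libraries of mouse aortic endothelial cells. The 6 genes were chosen by symbol, with earlier results of these data known, and all 6 were found among the 18287 genes of the deposited tables. Every difference below therefore describes these libraries and is not a test of the choice.

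The cells were a purchased primary culture of aortic endothelium grown in the supplier's complete medium, and strain, sex and age of the mice were not given in the sources used here. The control library came from cells labelled only as control. Another came from cells given glucose oxidase at 5 mU/mL for 30 min, an enzyme that oxidises glucose and releases hydrogen peroxide. The last came from cells that received the same enzyme treatment together with Et2HOBA (ethyl-2-hydroxybenzylamine) at 0.2 mM for 24 h. Et2HOBA is described as a scavenger, and what it reacted with in these cells was not measured here. Which agent was given first is not stated, and no library had Et2HOBA alone. With exposures of 30 min and 24 h, the time from enzyme to harvest may also differ between the treated libraries. Any such difference could not be told apart from Et2HOBA. Where 3 read counts follow a gene name below, they belong to control, to glucose oxidase alone and to both agents, in that order. Each group had 1 library, so no difference has a replicate check, no test between conditions was possible, and the intervals given are exact Clopper-Pearson intervals at 95% on the reads of 2 libraries, which cover counting error only.

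Matricellular proteins are secreted into the extracellular matrix but mainly signal to cells rather than bear load, and they are typically made during injury and remodelling. Osteopontin is a phosphorylated glycoprotein that binds integrins through an arginine-glycine-aspartate motif and also engages CD44, a transmembrane receptor best known for binding hyaluronan. Tenascin-C (Tnc) is a large matrix glycoprotein of remodelling tissue, and thrombospondin-1 (Thbs1) is an inhibitor of angiogenesis that binds CD36 and CD47 and can activate latent TGF-beta. SPARC is a collagen-binding glycoprotein that endothelial cells make in quantity, and SPARCL1, or hevin, is its close relative.

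Counts for control and for both agents are as deposited, and those of the glucose oxidase library were worked back from the authors' deposited log2 differences, which returned whole reads. The libraries held between 35005089 and 40212212 reads over the listed genes. In the glucose oxidase library 464 listed genes had 0 reads, against 131 in control and 218 with both agents. Of 2110 processed pseudogenes, 841 were lower there than in control by at least 1 log2 unit, against 52 in the library with Et2HOBA, and they took 0.389% of its reads against 0.718% in control. Between the treated libraries, 959 of the 2110 were higher with Et2HOBA by at least 1 log2 unit and 1 was lower. None of the 6 genes is a pseudogene. In a search of the annotated transcripts for shared stretches of 50 bases, Cd44, Sparc, Sparcl1, Thbs1 and Tnc shared none with another gene. Spp1 shared 9.05% of the stretches of its longest transcript with Gm42793, a short locus on the same strand inside it that the annotation holds as still to be verified. Over merged exons the 2 loci share 309 bases, of 1648 for Spp1. How reads in that part were assigned is not given in the sources used here.

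Spp1, Cd44 and Tnc had more reads in both treated libraries than in control, so their promoters are shown side by side. Each line gives the 250 bases before the RefSeq start site on GRCm38.p6, read 5′ to 3′ on the gene's own strand: chr5:104434861-104435110 (plus strand) for Spp1, chr2:102901666-102901915 (minus strand) for Cd44 and chr4:64047016-64047265 (minus strand) for Tnc. Spp1 and Tnc each had 2 RefSeq entries, and the one nearest the annotated 5′ end of the gene was used. Capitals mark matches to any of 10 searched motifs.
Spp1: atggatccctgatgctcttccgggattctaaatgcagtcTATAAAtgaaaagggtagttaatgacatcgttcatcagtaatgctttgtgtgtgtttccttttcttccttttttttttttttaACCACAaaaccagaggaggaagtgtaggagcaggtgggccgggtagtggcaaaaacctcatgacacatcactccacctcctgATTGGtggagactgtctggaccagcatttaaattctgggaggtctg
Cd44: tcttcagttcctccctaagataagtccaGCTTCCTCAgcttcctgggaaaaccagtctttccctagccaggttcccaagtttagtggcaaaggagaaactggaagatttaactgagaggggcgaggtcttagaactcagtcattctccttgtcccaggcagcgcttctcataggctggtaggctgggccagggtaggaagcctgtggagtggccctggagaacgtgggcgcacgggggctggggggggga
Tnc: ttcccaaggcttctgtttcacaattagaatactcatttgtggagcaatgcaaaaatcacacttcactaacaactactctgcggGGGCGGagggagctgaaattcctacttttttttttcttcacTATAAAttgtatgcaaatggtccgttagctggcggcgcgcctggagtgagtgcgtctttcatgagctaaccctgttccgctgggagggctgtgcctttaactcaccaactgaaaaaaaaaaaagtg

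The motifs were searched on both strands, and no motif was matched in all 3 windows. The Spp1 window held the TATA box letters TATAAA 211 bases before the start, the RUNX letters ACCACA 128 bases before it and a reversed CCAAT box 46 bases before it. TATAAA also stood 126 bases before the start of Tnc, after a GC box, GGGCGG, at 167 bases, and these letters were found in 12.4% and 32.7% of all 32851 promoter windows. ACCACA was in 14.0% and CCAAT in 33.8% of windows. The Cd44 window matched the core of the antioxidant response element, TGANNNNGC, on the other strand 222 bases before the start, as did 35.2% of all windows. So did the window of Sparc, a gene that hardly differed, at 217 bases. That window is not shown, and its start site lies 3103 bases from the annotated 5′ end of Sparc. The AP-1 letters TGANTCA, the cyclic AMP response element TGACGTCA, the C/EBP-ATF composite TGATGNAA, the E-box CACGTG and an NF-kappaB-like motif were not in these 3 windows; 6.75%, 1.55%, 3.45%, 6.02% and 4.11% of all windows hold them, in that order. By base composition the windows of Spp1 and Tnc were poor in G and C, at 43.6% and 44.8%, and that of Cd44 was richer, at 56.4%, around a median of 52.4% for all windows.

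Osteopontin had by far the widest spread of the 6. Spp1 (ENSMUSG00000029304.14, chr5:104435118-104441050, GRCm38) had 727 reads in the control library, 14489 in the glucose oxidase library and 29216 in the library given both agents. The control library was thus the low one, and the library given both agents was the highest. In bulk RNA, more cells of a type and more RNA per cell cannot be told apart, nor can fewer cells and less RNA per cell. The normalized count, that is reads divided by the library's size factor, was 21.3-fold that of control after glucose oxidase (95% interval 19.8 to 22.98), and 39.9-fold with both agents (37.1 to 43.04). Between the treated libraries it was 1.87-fold higher with Et2HOBA (1.84 to 1.91). On the log2 scale of normalized count plus 10, which is used for all log2 ratios below, the difference with glucose oxidase alone (4.39) was 82.9% of the difference with both agents (5.30). In the authors' deposited tables Spp1 ranked 1 of 18287 in each comparison with control, with values of 4.09 and 5.19, while by log2 ratio on the common scale it ranked 5 in each. Gm42793, the locus inside Spp1, had 1, 20 and 27 reads.

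Cd44, the cell surface receptor that binds both hyaluronan and osteopontin, was also higher in both treated libraries. Cd44 (ENSMUSG00000005087.17, chr2:102811141-102901665) had 999 reads in the control library, 2030 in the glucose oxidase library and 5019 in the library given both agents. These libraries kept the order seen for Spp1, with intervals that did not overlap. The normalized count was 2.17-fold that of control after glucose oxidase (2.01 to 2.35) and 4.99-fold with both agents (4.66 to 5.35). Unlike Spp1, whose difference lay mostly in the glucose oxidase library, Cd44 differed about as much between the treated libraries (log2 ratio 1.20) as between glucose oxidase and control (1.11). The files give reads per gene, so the standard and variant splice forms of CD44 were not analysed here.

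Tenascin-C showed the same order at a lower level. Tnc (ENSMUSG00000028364.15, chr4:63959785-64047015) had 291 reads in the control library, 442 in the glucose oxidase library and 1237 in the library given both agents. The library with both agents stood above the other two, and most of the difference lay between the treated libraries. Its normalized count was 1.62-fold that of control after glucose oxidase (1.40 to 1.89), 4.22-fold with both agents (3.71 to 4.82) and 2.60-fold higher with than without Et2HOBA (2.33 to 2.91). The log2 ratio between the treated libraries, 1.36, was the largest of the 6 genes, and the difference with glucose oxidase alone (0.68) was 33.3% of the whole (2.04). A noncoding gene on the opposite strand, 8030451A03Rik, shares 176 exon bases with Tnc and had 36, 26 and 29 reads; whether the counting used strand is not given in the sources used here.

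Thrombospondin-1 took another course. Thbs1 (ENSMUSG00000040152.8, chr2:118111876-118127133) had 677 reads in the control library, 298 in the glucose oxidase library and 541 in the library given both agents. The glucose oxidase library was the low one, and the library with both agents lay between it and control. Relative to control the normalized count was 0.471 after glucose oxidase (0.409 to 0.540) and 0.794 with both agents (0.708 to 0.890), and it was 1.69-fold higher with than without Et2HOBA (1.46 to 1.95). Of the 6 genes, only Thbs1 passed 1 log2 unit below control with a pseudocount of 10, at -1.06 after glucose oxidase, while with a pseudocount of 1 Sparcl1 passed too. With a pseudocount of 50 or in the authors' deposited table (-0.79) Thbs1 did not pass. A noncoding gene on the opposite strand, Gm29233, shares 208 exon bases with Thbs1 and was not listed. Whether the counting used strand is not given in the sources used here.

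Sparc was the most abundant of the 6 by reads, and it hardly differed. Sparc (ENSMUSG00000018593.13, chr11:55394500-55423183) had 68104 reads in the control library, 56304 in the glucose oxidase library and 64170 in the library given both agents. Its normalized count relative to control was 0.884 (0.874 to 0.894) and 0.936 (0.926 to 0.946) in the same order of treated libraries. These intervals lie below 1 for the reads counted, and the small difference between the treated libraries changed sign with the scaling, from a log2 ratio of 0.08 to -0.01 when libraries were scaled by total count. Its relative Sparcl1 (ENSMUSG00000029309.7, chr5:104079111-104113733) was at the limit of detection, with 6 reads in the control library, 0 in the glucose oxidase library and 1 in the library given both agents. Against a floor of 3 reads per library, Sparcl1 was at least 1.87-fold lower after glucose oxidase if its 6 control reads are taken as exact. The interval that also covers their counting error allows a difference as small as 1.10-fold. The ratio with both agents, 0.166, had an interval from 0.0036 to 1.365, so no difference was detectable there at this depth. Its log2 ratios depended on the pseudocount, at -0.66 and -0.53 with 10 and -2.77 and -1.80 with 1.

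**Figure D1:**
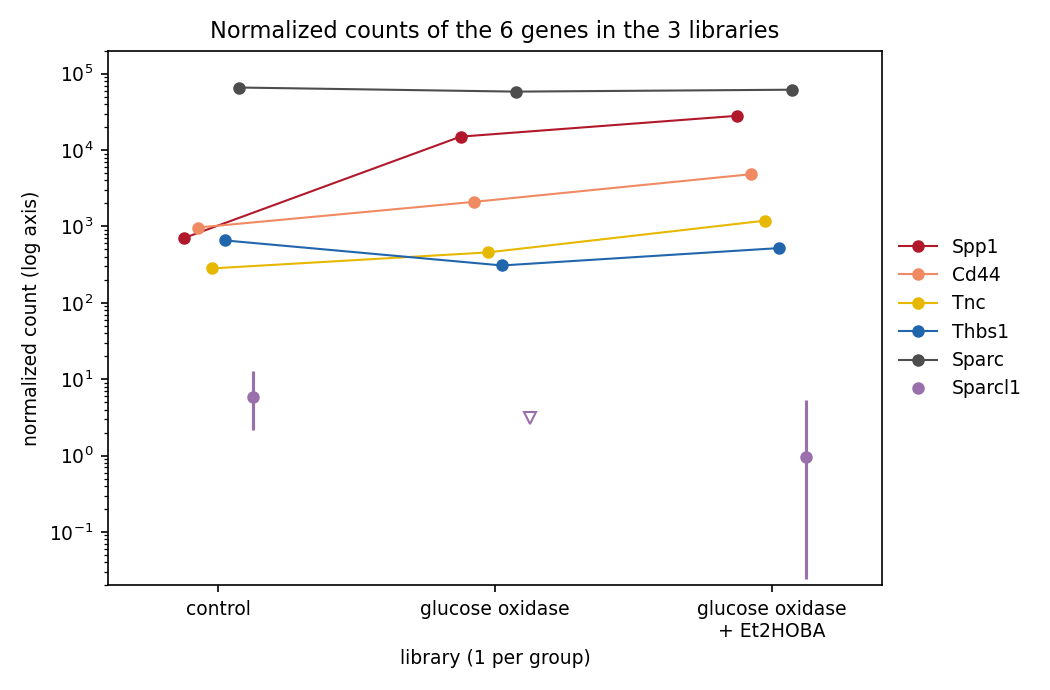
Normalized counts of the 6 genes (log axis) in the 3 libraries, 1 library per group; vertical bars are exact Poisson intervals at 95%, mostly smaller than the points, and the open triangle is the floor of 3 reads for Sparcl1 at 0 reads. Thin lines join the libraries as a guide only. Spp1 is at 704.5 in control and 28130 with both agents, Sparc is between 58324 and 65993, and Thbs1 is lowest in the glucose oxidase library.

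Counted at an absolute log2 ratio of 1, a limit that 12.7% of all listed genes passed after glucose oxidase against control (4.07% higher, 8.6% lower), 3 of the 6 genes passed. Spp1 and Cd44 were above and Thbs1 below, and among protein-coding genes alone 9.3% passed. For glucose oxidase plus Et2HOBA against control, 3 of 6 passed, Spp1, Cd44 and Tnc, all higher, where 14.7% of listed genes passed (6.66% higher, 8.04% lower) and 16.6% of protein-coding genes. Between the treated libraries, Cd44 and Tnc passed, both higher with Et2HOBA, against 8.55% of listed genes (6.39% higher, 2.15% lower) and 3.32% of protein-coding genes. The median log2 ratio of the 6 was 0.25, 0.97 and 0.82 in these comparisons, in the order given, beside medians between -0.01 and 0.00 over all listed genes. Both comparisons with control use the same control library and are not independent of each other. Since the genes were chosen on these comparisons, their counts are a description only. In the authors' deposited table for glucose oxidase Cd44 had 0.99 and only Spp1 of the 6 passed.

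**Figure D2:**
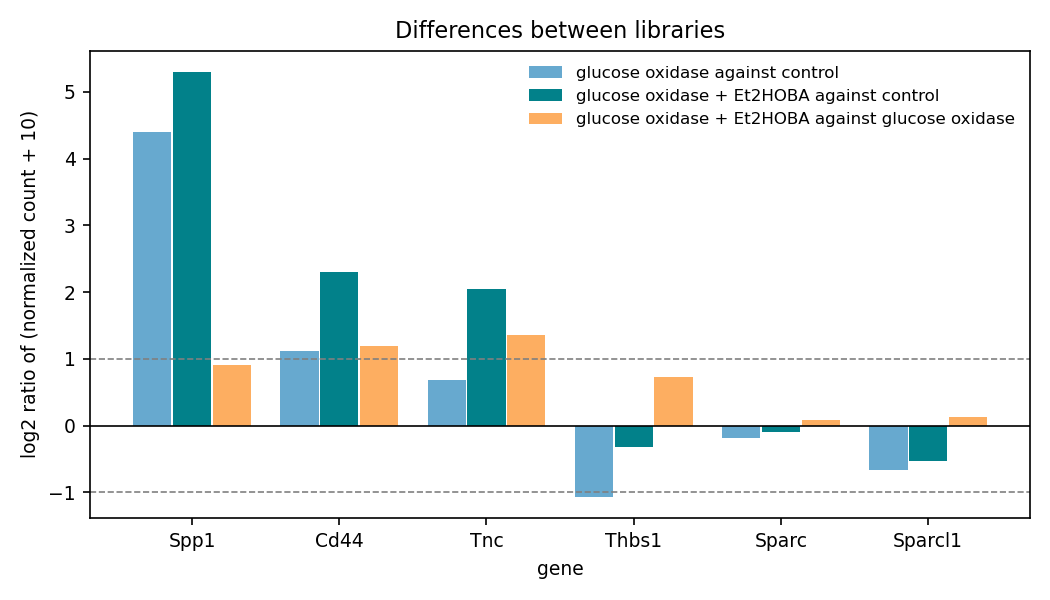
Log2 ratios of normalized count plus 10 for each gene (x axis) in the 3 comparisons, with dashed lines at the limit of 1 in each direction. Spp1 exceeds the others in both comparisons with control (4.39 and 5.30), Tnc has the tallest bar between the treated libraries (1.36), and Thbs1 alone passes the lower line (-1.06).

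Levels of different genes were compared per length, as RPKM, the reads per kilobase of merged exons scaled to the reads of all listed genes. In control Sparc stood at 499.8, Spp1 at 12.3, Cd44 at 4.10, Thbs1 at 3.10, Tnc at 1.04 and Sparcl1 at 0.0568. Sparc thus made up 96.05% of the summed level of the 6 genes. After glucose oxidase Spp1 reached 251 beside 425 for Sparc, and with both agents 441 beside 421. Among protein-coding genes Spp1 stood at the percentile of 67.96 in control and of 98.97 and 99.55 in the treated libraries, and Cd44 at 41.3, 59.0 and 78.7. Which of Spp1 and Sparc was higher with both agents depended on the length used: the ratio of Spp1 to Sparc was 1.05 over merged exons and 0.695 over the longest transcript of each, an alternative chosen after the data were seen. Tnc was below Thbs1 in control, with a ratio of 0.336, and above it with both agents, at 1.79, and the longest transcripts gave 0.354 and 1.88. After glucose oxidase alone Tnc and Thbs1 could not be ordered over merged exons, with a ratio of 1.16 and an interval from 0.998 to 1.35. That interval is on the reads of the 2 genes in 1 library. It does not cover the choice of length, and the longest transcripts gave 1.22.

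**Figure D3:**
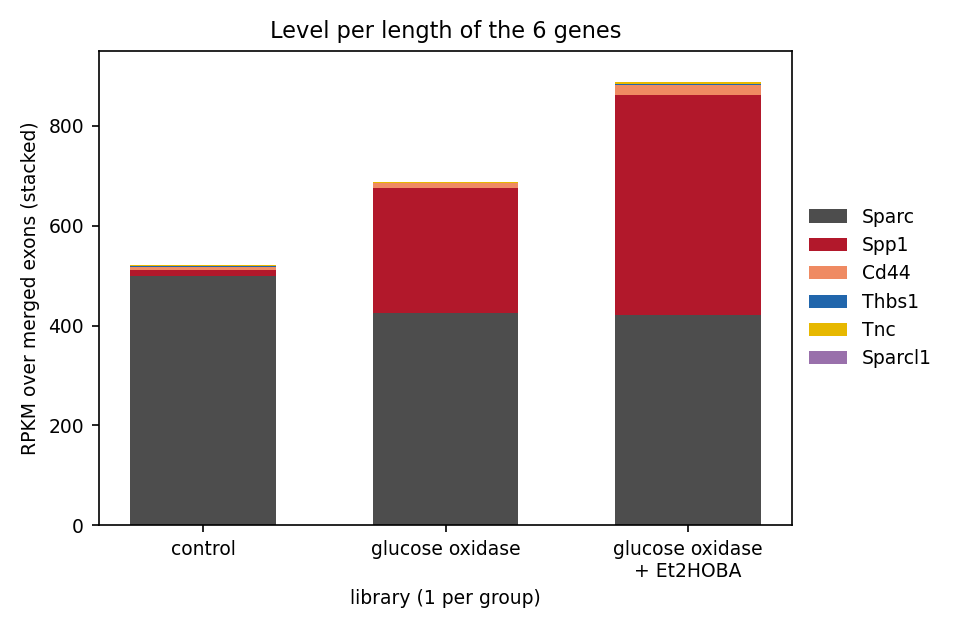
Levels of the 6 genes per length, in RPKM over merged exons, stacked for each library (1 per group). Sparc fills nearly the whole bar in control, and Spp1 makes up 36.5% of the bar after glucose oxidase and 49.7% with Et2HOBA added.

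The partners of these genes were taken from 10 lists of receptors, enzymes and family members with 66 genes in all, of which 50 were listed in the tables. At the limit of 1, 5 of the 50 were higher and 11 lower after glucose oxidase, 9 higher and 13 lower with both agents, and 1 higher and 3 lower with Et2HOBA relative to glucose oxidase alone. These are 32%, 44% and 8% of the 50, beside 12.7%, 14.7% and 8.55% of all listed genes. Among protein-coding genes, the type of all 50, 9.3%, 16.6% and 3.32% passed. The share between the treated libraries was thus near that of all listed genes but above that of protein-coding genes, with only 1 gene higher and 3 lower. In the authors' deposited table for glucose oxidase against control, 2 of the 50 were higher and 10 lower by at least 1. Their medians on the common scale were -0.18, -0.09 and 0.03. The 4 other genes of the osteopontin family in bone and tooth, Ibsp, Dmp1, Dspp and Mepe, were not listed, nor were F2, Mmp7, Mmp9, Has2, Tnfaip6, Thbs4, Spock1, Spock3, Smoc1, Smoc2, Ccn5 and Ccn6. Listed genes had at least 5 reads in at least 1 library.

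All 8 integrin subunits that form osteopontin receptors were listed, and they did not share a direction. Itgb1 and Itgb3, subunits of the classical arginine-glycine-aspartate receptors, were the most abundant per length, at an RPKM of 236.5 and 168 in control, and neither passed the limit in any comparison. Itgb5, the partner of the alpha-v subunit in another osteopontin receptor, had 170, 407 and 612 reads. It was 2.56-fold and 3.58-fold its control level in the treated libraries. Itgav, the alpha-v subunit itself, had 2949, 3471 and 5214 reads and log2 ratios of 0.33 and 0.81. Itga9, whose product binds a site of osteopontin exposed by thrombin, had 3837, 1813 and 1646 reads, or 0.505 and 0.426 of control. Itga8 was the lowest of the list with both agents relative to control, with 658, 185 and 44 reads and log2 ratios of -1.68 and -3.63.

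Among enzymes that act on osteopontin, 3 of 6 were listed. Mmp3, a stromelysin that cleaves it, had 987, 1640 and 2376 reads, with log2 ratios against control of 0.82 and 1.25. Tgm2, the transglutaminase that cross-links it, was lower in both treated libraries, with 19243, 7889 and 8756 reads and log2 ratios of -1.19 and -1.14. The secretory kinase Fam20c had 505, 592 and 724 reads and stayed within the limit.

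Hyaluronan genes on both sides of the limit included a synthase, a breakdown protein and receptors. Of 11 listed genes, 2 were higher and 5 lower after glucose oxidase, and 3 higher and 5 lower with both agents. Has3, a hyaluronan synthase, had 975, 244 and 82 reads, a log2 ratio of -3.42 with both agents. Cemip2, a cell surface protein tied to hyaluronan breakdown, had 36866, 17085 and 9272 reads. It was 0.495 of control after glucose oxidase alone, and with both agents its 95% interval ran from 0.244 to 0.256 of control. Hmmr, a hyaluronan-binding protein of the mitotic spindle, had 1100, 264 and 129 reads. The receptors of this list differed in direction: Stab2, a scavenger receptor for hyaluronan, had 1101, 359 and 252 reads, while Lyve1, the hyaluronan receptor of lymphatic and some other endothelium, had 11828, 22417 and 33226. Per length Lyve1 was far above Cd44, at an RPKM of 283 beside 18.4 with both agents. Stab1 (log2 ratios of -1.11 and -1.31), Hyal1 (0.71 and 1.25) and Vcan (1.19 and 1.20), which encode a scavenger receptor, a hyaluronidase and the proteoglycan versican, also passed the limit in at least 1 comparison with control; these genes and Lyve1 fall outside the rule for named genes and were chosen after their values were seen. Hyal1 shares 63.2% of its stretches with other genes, so its count is uncertain.

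The proteins that link CD44 to the actin cytoskeleton or shed its outer part mostly stayed within the limit. Of 7 listed, none passed after glucose oxidase and 1, Ezr, passed with both agents. Ezr, which encodes the linker ezrin, had 4967, 6954 and 13319 reads, and was 2.66-fold its control level with both agents (2.58 to 2.75). The related Msn was higher per length than Ezr in each library, with log2 ratios of 0.44 and 0.72. The sheddases Adam10, Adam17 and Mmp14 had log2 ratios against control between -0.23 and 0.17.

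Of 6 partners of thrombospondin-1, 1 was higher and 1 lower in each comparison with control. Cd36, a receptor through which thrombospondin-1 acts on endothelial cells, had 2964, 897 and 1093 reads. It was low in both treated libraries, at 0.324 and 0.366 of control, whereas Thbs1 itself was low mainly after glucose oxidase alone. Lrp1, an endocytic receptor that clears thrombospondin-1, had 3271, 8897 and 13804 reads and log2 ratios of 1.54 and 2.06. Cd47, with 10327, 9473 and 9926 reads, was nearly level. The 3 other thrombospondins listed, Thbs2, Thbs3 and Comp, had at most 40 reads in any library.

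The relatives of SPARC and of tenascin-C gave few values. Fstl1, a secreted glycoprotein of the SPARC family, had 20450, 12187 and 9784 reads and was 0.475 of control with both agents (0.464 to 0.487), a log2 ratio of -1.07. Spock2 had at most 54 reads. The other tenascins, Tnr, Tnxb and Tnn, also had at most 54 reads, so Tnc was the only tenascin at an appreciable level.

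Other matricellular genes split. Ccn2, connective tissue growth factor, had 344 reads in the control library, 731 in the glucose oxidase library and 2483 in the library given both agents, in the order seen for Cd44 and Tnc. It was 2.27-fold its control level after glucose oxidase (2.00 to 2.59) and 7.17-fold with both agents (6.41 to 8.05), and was the only one of the 50 partner genes higher by at least 1 log2 unit with than without Et2HOBA (1.65). Its relative Ccn1, outside the rule for named genes, had 812, 922 and 1786 reads. Postn, Tgfbi and Fbln5, which encode periostin, a collagen-associated adhesion protein and an elastic fibre protein, were lower in both treated libraries. Postn had 172, 33 and 26 reads, Tgfbi 968, 350 and 336, and Fbln5 39928, 16936 and 15550. Postn reached the mean count required for naming only through the control library. Its log2 ratio after glucose oxidase was -2.0, but -1.36 with a pseudocount of 50 and -0.91 in the authors' deposited table.

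**Figure D4:**
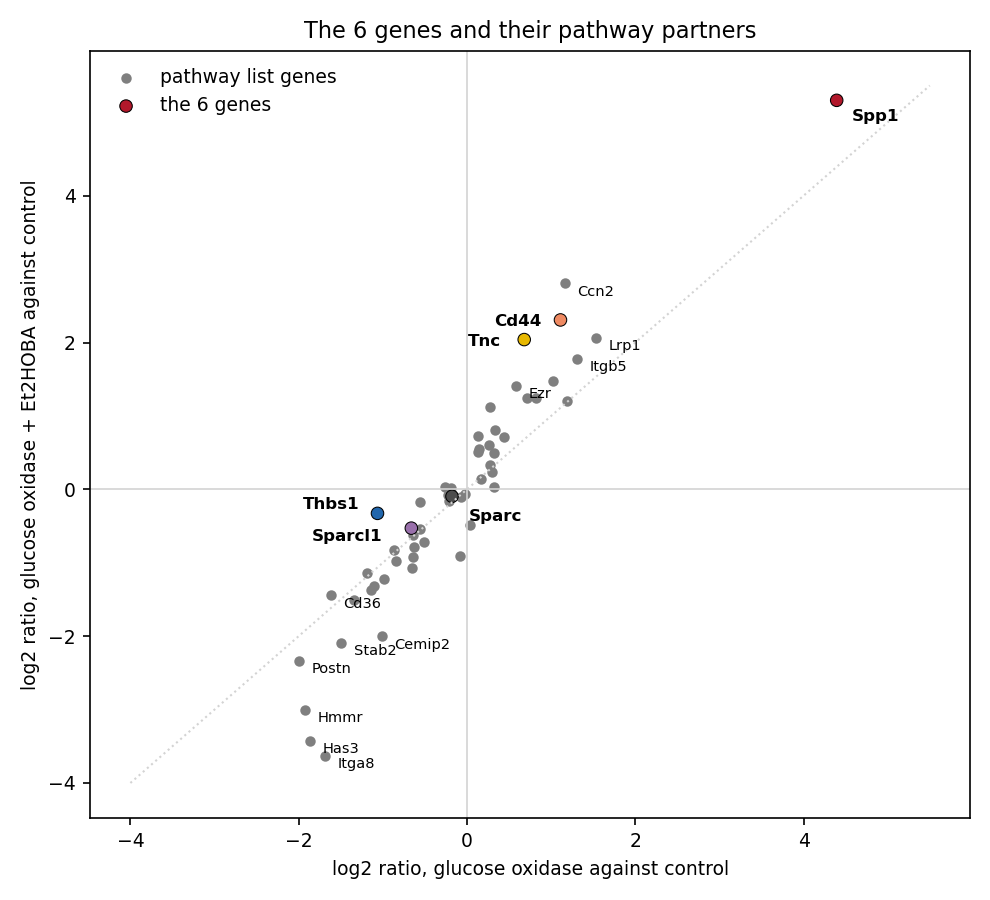
Log2 ratios of the 6 genes (large points) and 50 partner genes (grey) after glucose oxidase (x axis) and with both agents (y axis), each against the same control library; the dotted line marks equal values. Cd44, Tnc and Ccn2 lie above the line, Thbs1 lies above it on the negative side, and Itga8, Has3 and Hmmr lie below it.

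The genes most alike in pattern were found among 10592 protein-coding genes with a mean normalized count of at least 100, by distance over the log2 ratios of the treated libraries against control, which rest on 3 libraries only. For Spp1 they were Chac1, a glutathione-degrading enzyme of the stress response with 65, 1396 and 2976 reads, and Car6, a secreted carbonic anhydrase with 0, 203 and 378 reads. With no control read, the ratios of Car6 and so its closeness to Spp1 are set by the pseudocount. The ratios of Chac1, with 65 control reads, depend on the pseudocount in part, and how far this sets its closeness was not tested. Both Chac1 and Car6 reached the required mean count only through the treated libraries. For Cd44 they were Hilpda, a lipid droplet protein induced in hypoxia with 304, 627 and 1488 reads, and Pxdc1, with 126, 262 and 710. Jag1, a Notch ligand with 5337, 8265 and 20718 reads, and the secreted hormone Stc1, with 619, 1047 and 2472, were nearest to Tnc. For Thbs1 the nearest genes lay farther off, at distances of 0.221 for Insig1, a regulator of sterol synthesis, and 0.249 for Sertad4, while those of Sparc, Acbd5 and Inpp4a, lay at 0.011. Rhpn2 and Dsel were nearest to Sparcl1, whose own ratios rest on 7 reads.

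Spp1 and Sparcl1 lie on chromosome 5 with 321 kb between them, and Sparcl1 had at most 6 reads in any library. Of 9 other listed genes within 500 kb of Spp1, 1 passed the limit against control, the overlapping Gm42793, with log2 ratios of 1.49 and 1.71. Over all listed genes 12.7% passed after glucose oxidase, 14.7% with both agents and 8.55% between the treated libraries. The next listed gene downstream, Pkd2, which encodes polycystin-2, had 4544, 6000 and 6302 reads and log2 ratios of 0.50 and 0.46. The medians of the 9 neighbours were -0.13 and -0.08. None of 3 listed neighbours of Cd44 passed the limit in any comparison, and their medians lay between -0.05 and 0.01. The 6 listed neighbours of Tnc had medians of 0.42 and 0.86. Of these Rpl17-ps4, a processed pseudogene, passed after glucose oxidase (-1.22) and between the treated libraries (2.16), and none passed against control with both agents. For Thbs1, 2 of 5 listed neighbours passed in each comparison with control, Bub1b (-1.82 and -2.93) and Gpr176 (1.18 and 1.67). For Sparc, 2 of 9 passed after glucose oxidase and 1 with both agents. For Sparcl1, 2 of 11 passed in each comparison with control, Spp1 and Gm42793. Such counts of few genes are a description only.

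**Figure D5:**
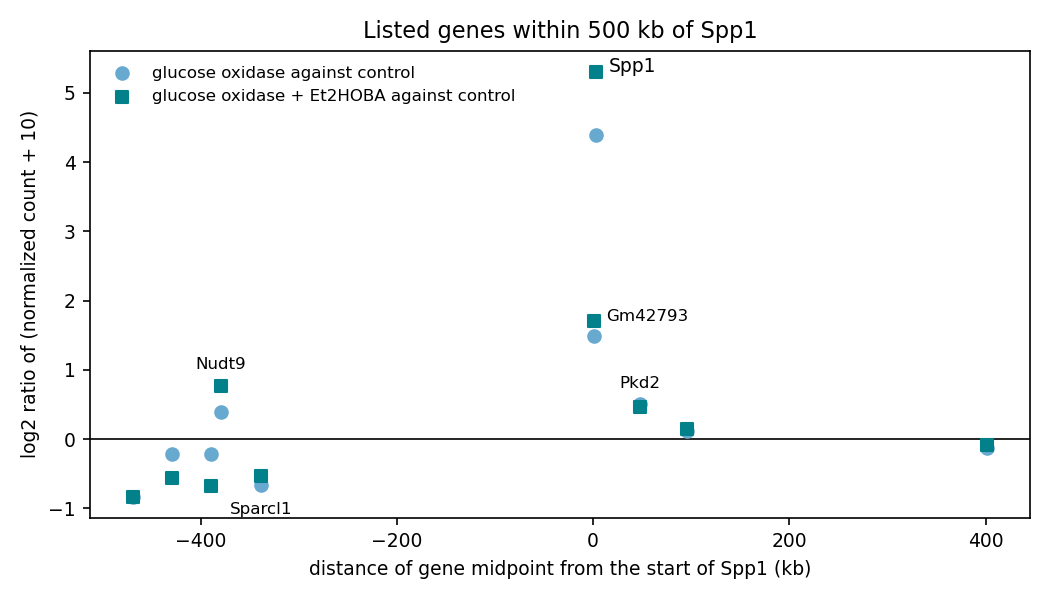
Log2 ratios against control (y axis) of the listed genes within 500 kb of Spp1, by the distance of each gene's midpoint from the start of Spp1 in kb (x axis); circles are glucose oxidase, squares glucose oxidase plus Et2HOBA. Spp1 stands at 4.39 and 5.30, the overlapping Gm42793 at 1.49 and 1.71, and the other 8 genes between -0.83 and 0.77.

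Markers of the labelled cell type and of others were read beside these results. The 8 endothelial markers were all listed, with 309779, 191303 and 197925 summed reads. Kdr, Tek and Vwf were lower past the limit in both treated libraries, while Pecam1, Cdh5, Tie1, Egfl7 and Emcn stayed within it. Of the latter, Tie1 was lower, with log2 ratios of -0.66 and -0.88, and Emcn was higher, at 0.33 and 0.55. Smooth muscle and pericyte markers, 6 of 8 listed, summed to 67, 129 and 195 reads, and 3 of the 6 were higher by at least 1 log2 unit with both agents. These were Myh11, with 19, 35 and 73 reads, Pdgfrb, with 21, 43 and 71, and Cspg4, with 2, 15 and 25, which passed after glucose oxidase alone as well. The others were Acta2, with 8, 18 and 13 reads, Tagln, with 9, 9 and 4, and Des, with 8, 9 and 9. Of 6 fibroblast markers 3 were listed, summing to 137, 1367 and 2844 reads. Pdgfra, with 107, 1325 and 2821 reads, made up most of that sum, while Col1a1 had 28, 30 and 23 and Col3a1 2, 12 and 0. Of 7 macrophage and leukocyte markers 4 were listed, summing to 8462, 17291 and 28167 reads. Nearly all of these came from the lysosomal protein Cd68, with 8215, 17067 and 27799 reads; Cd14 had 55, 136 and 272, Lyz2 186, 76 and 86 and Csf1r 6, 12 and 10, and Ptprc, Adgre1 and Itgam were not listed. The lymphatic markers Lyve1 and Flt4 were listed, summing to 18899, 28501 and 41022 reads, and Prox1 and Pdpn were not. The rise in that sum came mostly from Lyve1, with 11828, 22417 and 33226 reads. Flt4 was nearly level, with 7071, 6084 and 7796 reads and log2 ratios against control of -0.12 and 0.13. Pdgfra, Cd68, Cd14, Lyve1 and, at far lower counts, Myh11, Pdgfrb and Cspg4 thus had higher values in both treated libraries, as had Spp1, Cd44 and Tnc. Other genes of the same lists differed from these. Lyz2 was lower past the limit in both treated libraries, and Acta2, Tagln, Des, Col1a1, Col3a1, Csf1r and Flt4 stayed within the limit against control. The part of any marker in the differences of Spp1, Cd44 and Tnc was not tested.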

How the data were processed

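Polyadenylated RNA was sequenced as stranded libraries, 1 each for control, for glucose oxidase alone and for both agents, per the labels' protocols. The submitters' processing notes name STAR, featureCounts and mm10; versions and the annotation are not given in the sources used here. The authors deposited read counts, log2-scale normalized values and their log2 difference for control and for both agents, per the file headers, and a log2 difference alone for glucose oxidase against control. The authors' log2 table between the treated libraries held 7 genes, none of them among the 6.

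Reads of the glucose oxidase library were worked out from the log2 differences. These behave as differences of asinh(sqrt(scaled count)), with a scale fitted for each library, and solving for the count gave values within 0.01 of a whole read for 100% of 18275 genes matched by name (largest distance 0.000138). With 1 read added to every control count as a check, only 3.31% did. The 12 genes whose names are shared were assigned by the same criterion. Recovery was tested on simulated data.

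Libraries were scaled by the median of ratios (factors of 1.03 for control, 0.965 for glucose oxidase and 1.04 for both agents), and log2 ratios were taken after adding a pseudocount of 10. With 1 library per group no count model was fitted. Exon lengths came from GENCODE M21, in which 17878 gene IDs had the same version, all 17878 at the same position. Named partner genes passed 1 log2 unit in any comparison at a mean normalized count of 50 or more, at most 4 per list ranked by the ratio with both agents; for each member the 2 most alike genes are named. The members, lists, motifs and limits were chosen with earlier results of these data known. Alternatives were total-count and TMM scaling (edgeR 4.0.16), pseudocounts of 1 and 50, the authors' scale, limits of 0.5 and 2, protein-coding genes only and a minimum mean of 10. Python 3.11.15, scipy 1.17.1 and pandas 2.3.3 were used.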

Additional observations from a re-analysis of the deposited data

How the results depend on the processing

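No paired analysis was possible because each group holds 1 library, and for the same reason no library could be left out. The alternatives were run for the 6 genes and the 17 partner genes that the naming rule picked, 69 values in all, and not for other genes given with values. None of these values past 1 log2 unit changed sign, and TMM scaling moved none across the limit. On the authors' deposited scale 5 of 46 values crossed it, and the number of the 6 genes past it after glucose oxidase went from 3 to 1. At a limit of 0.5 the 6 genes gave 5 after glucose oxidase and 4 between the treated libraries, and at a limit of 2 they gave 1 and 0. The authors' table between the treated libraries lists none of the 6 and gave no value. The 50 partner genes gave 29, 37 and 13 at a limit of 0.5 and 0, 7 and 0 at a limit of 2, in the order glucose oxidase against control, both agents against control, and between the treated libraries.

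Over all listed genes the counts were 2317, 2688 and 1563 in that order. They were 4243, 4494 and 3311 with a pseudocount of 1, 1163, 1696 and 585 with 50, 6175, 7332 and 4670 at a limit of 0.5, and 526, 695 and 391 at a limit of 2. On the authors' scale they were 734 and 1768. With protein-coding genes alone, for which the scaling factors were also recomputed, they were 1239 and 430 for the first and the last comparison. In the last, 135 were higher and 295 lower, against 1169 higher and 394 lower over all genes. Processed pseudogenes made up 959 of those 1169 and 1 of those 394. Total-count scaling shifted the median of all genes to -0.06, -0.13 and -0.08 and turned the split with both agents from 1217 higher and 1471 lower into 988 and 1837; the counts of the 6 genes did not move. In each of these cases the cause was not tested beyond the change of gene set, scale or limit itself.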
